A study of Drosophila melanogaster with 10 samples.

Results

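The negative elongation factor NELF is built from the products of 4 genes, Nelf-A, NELF-B, TH1 (the fly NELF-D) and Nelf-E, and all 4 were measured among the 7987 genes listed for the wing imaginal discs of 4 Drosophila melanogaster genotypes. They were chosen by name as the subunits of the complex, and all 4 passed the filter on low values that left 7858 genes for testing. The discs came from larvae of the last instar in which apterous-Gal4 (ap), active in the dorsal compartment only, drove the UAS transgenes. Every genotype also carried UAS-GFP and tubulin-Gal80ts, which keeps Gal4 inactive until the larvae are moved to a higher temperature. The control ap > GFP (2 libraries) had an extra copy of UAS-GFP. ap > NelfAi (2 libraries) expressed a UAS-NelfA RNAi construct and was labelled as normal in growth. ap > Yki (3 libraries) overexpressed Yorkie, the growth-promoting coactivator of the Hippo pathway, and was labelled as mildly overgrown. ap > Yki+NelfAi (3 libraries) carried both transgenes and was labelled as neoplastic. RNA was extracted from pooled discs, the number of discs in a pool differed between genotypes, and the RNAi came from a single construct. The comparisons asked how far the RNAi lowered its own target, and whether the transcripts of the partner subunits moved with it or with Yki.

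NELF, with its partner DSIF, holds RNA polymerase II shortly after it has left the promoter. The kinase P-TEFb releases the polymerase by phosphorylating NELF, DSIF and the polymerase itself, and P-TEFb is in turn held inactive by the 7SK snRNP. Pausing is widespread at developmental and signal-responsive genes of Drosophila.

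The whole libraries held between 6990931 and 13065642 reads on genes. A deposited value is a read number scaled by 1 factor per library, and 1 read was worth between 0.0464 and 0.0839. Reads assigned to no feature made up 8.88% of ap > NelfAi replicate 1 and at most 4.89% of any other library. All 7 markers of the disc epithelium were present. Their summed value was 255 in ap > NelfAi replicate 1 and 528 in replicate 2, against 462 to 478 in ap > GFP. It was 323 to 507 in ap > Yki and 420 to 555 in ap > Yki+NelfAi. The 5 fat body markers summed to 276 in ap > NelfAi replicate 1 and 47.7 in replicate 2, against 36.6 to 40.1 in ap > GFP. Their sum was 16.9 to 172 in ap > Yki, with replicates 1 and 2 above both controls and replicate 3 below both. In ap > Yki+NelfAi it was 13.8 to 45.6. The 6 myoblast markers summed to 46.1 to 56.9 in ap > Yki+NelfAi and 97.0 to 116 in ap > GFP. They summed to 60.4 and 105 in ap > NelfAi replicates 1 and 2, and to 66.4 to 152 in ap > Yki. Hemocyte markers (5 measured) summed to 11.6 to 14.8 in ap > GFP and to 29.9 and 21.7 in ap > NelfAi replicates 1 and 2. They summed to 21.7 to 60.3 in ap > Yki and 13.2 to 22.3 in ap > Yki+NelfAi. Neuron markers (3 measured) summed to 14.3 to 17.1 in ap > GFP and to 4.11 and 16.5 in ap > NelfAi replicates 1 and 2. Their sums were 8.84 to 18.0 in ap > Yki and 10.6 to 20.7 in ap > Yki+NelfAi. The part of these tissues in the NELF values was not tested. In bulk tissue, fewer cells with a transcript and less transcript per cell cannot be told apart, and transcripts from the compartment without the driver dilute any change.

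The 4 genes lie on 3 chromosome arms (dm6 coordinates). Nelf-A (FBgn0038872, 3R, bases 21223704 to 21229512, plus strand) has 3 annotated transcripts, and the longest spans 4648 bases in 7 exons with a coding part of 3792 bases. NELF-B (FBgn0027553, X, 7725996 to 7728361, minus strand) has a transcript of 2226 bases, TH1 (FBgn0010416, X, 16388820 to 16391438, minus strand) one of 2297 bases, and Nelf-E (FBgn0017430, 3L, 8599442 to 8600879, minus strand) one of 1227 bases. Nelf-A thus has the longest transcript of the complex, at the 85.3th percentile of 7735 tested genes with an annotated length, whose median was 2102 bases. Nelf-E stands at the 21.9th percentile. Nelf-A shares 364 exonic bases with the noncoding gene lncRNA:CR44265 on the opposite strand. Nelf-E shares 176 exonic bases with CG43078, also on the opposite strand. The sources used here do not say whether reads were counted by strand, so reads from these overlaps cannot be told apart, and CG43078 itself had values between 0.923 and 5.33.

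Per kilobase of transcript, TH1 was the most abundant subunit and the other 3 lay close together in the control discs. The mean level per kilobase in ap > GFP was 14.3 for TH1, 8.98 for NELF-B, 8.87 for Nelf-E and 8.22 for Nelf-A. TH1 was the highest of the 4 in all 10 libraries. The order of the other 3 changed between the ap > GFP replicates, since NELF-B had 8.07 and 9.89, Nelf-E 9.64 and 8.09 and Nelf-A 8.69 and 7.76 per kilobase, so their levels did not differ beyond the spread. Nelf-A was the lowest subunit per kilobase in 7 of the 10 libraries, NELF-B in 2 and Nelf-E in 1. All of these levels were moderate for the disc, between the 57.8th percentile of tested genes for Nelf-A and the 72.2th for TH1.

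Nelf-A, the target of the RNAi, had its lowest mean in the tumorous discs. Its deposited value was 40.4 and 36.0 in ap > GFP, and 11.4 and 32.9 in ap > NelfAi. In ap > Yki it stood at 28.1, 31.9 and 39.4, and with both transgenes at 17.1, 15.8 and 16.9. The 3 tumorous libraries lay below every library of ap > GFP and ap > Yki. The ap > NelfAi libraries fell on both sides of them, replicate 1 below the tumorous discs and replicate 2 above ap > Yki replicates 1 and 2. These values rested on 136 to 849 reads, with a counting error of 3.43% to 8.57%, so the gap between the ap > NelfAi replicates was far larger than counting error. As a share of the ap > GFP mean, Nelf-A was at 29.8% and 86.2% in the ap > NelfAi replicates, at 73.6% to 103% in ap > Yki and at 41.2% to 44.8% in ap > Yki+NelfAi. The group means were 38.2 ± 3.08 (SD, n = 2) in ap > GFP, 22.2 ± 15.2 (n = 2) in ap > NelfAi, 33.2 ± 5.75 (n = 3) in ap > Yki and 16.6 ± 0.721 (n = 3) in ap > Yki+NelfAi. A hairpin for RNAi is itself made from target sequence, and a count per gene does not separate its reads from those of the gene. Where in Nelf-A the construct matches is not given in the sources used here.

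**Figure D1:**
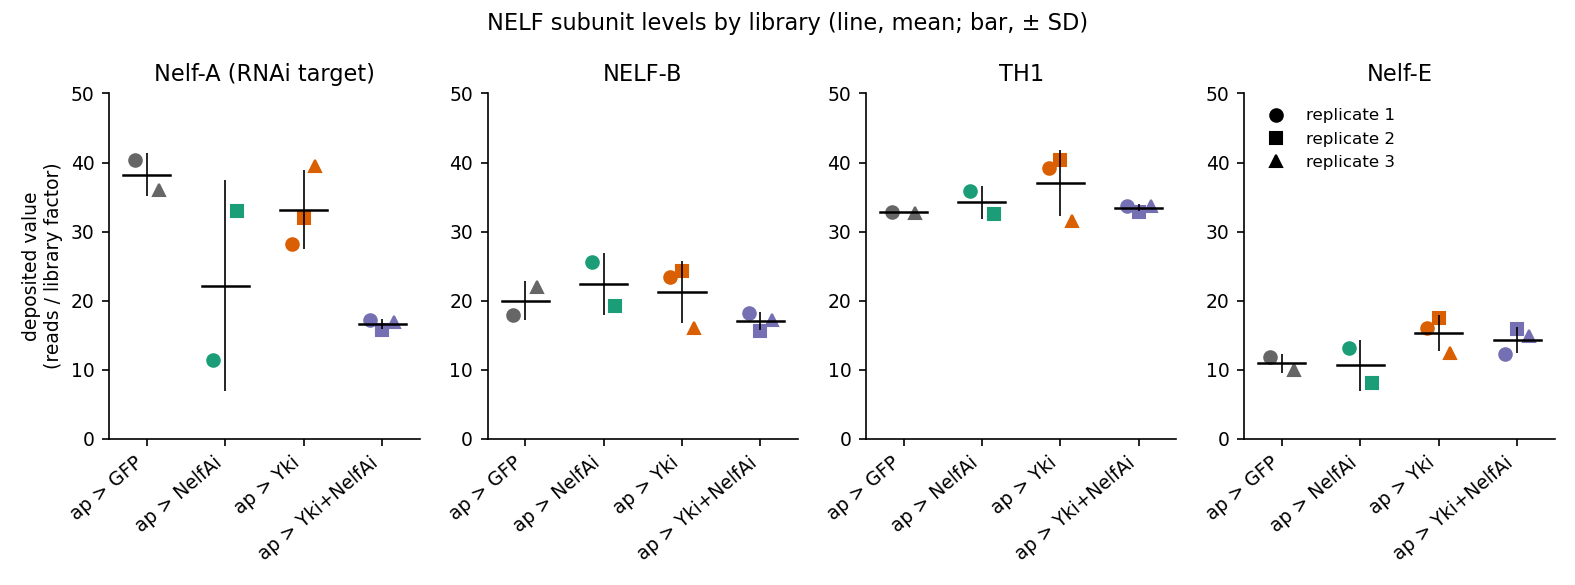
Deposited value (reads divided by the library's factor) of the 4 NELF subunits in each of the 10 libraries, with 1 symbol per replicate number, a line at the mean and a bar of ± 1 SD for each genotype. Nelf-A sits between 15.8 and 17.1 in the 3 ap > Yki+NelfAi libraries and spans 11.4 to 32.9 in ap > NelfAi, while TH1 stays between 31.6 and 40.4 in all libraries.

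Only Nelf-A in the tumorous discs passed the test. A gene was called at a limma p adjusted over all tested genes under 0.05 with a change of at least 1.5-fold. In ap > Yki+NelfAi against ap > GFP, 1 of the 4 subunits was called, where 22.1% of all tested genes were called in either direction and 12.1% as lower. Nelf-A stood at 0.442-fold of the control (95% interval 0.250 to 0.778), a log2 change of -1.18 (SE 0.364, limma adjusted p = 0.0453). All 3 tumorous libraries lay below both controls, as did 31% of tested genes. Of the 7 disc epithelium markers 4 (nub, vg, ara and caup) and of the 6 myoblast markers 3 (twi, Him and htl) were called as lower in the same comparison, while the other 3 disc markers, sd, rn and ap, had log2 changes of 0.45, 0.62 and 0.61 that did not pass. All 5 salivary gland markers measured were called as lower, with log2 changes from -6.17 to -2.80 and sums of 63.7 to 308 in ap > GFP and 0.379 to 3.84 in ap > Yki+NelfAi. Of the 5 tracheal markers serp and verm were called as higher and btl as lower, with sums of 540 to 773 and 1104 to 1253. In ap > Yki the salivary gland sums were 3.25 to 12.5, and 4 of these markers were called as lower against ap > GFP. The tracheal sums there were 911 to 1223, with btl called as higher. In ap > NelfAi the salivary gland sums were 48.2 to 159 and the tracheal sums 459 to 599. The part of these tissues in the Nelf-A change was not tested. The size of the fall changed little when any single library was left out, between -1.26 and -1.10, but the call did not hold. It was kept only without either ap > NelfAi library (limma adjusted p = 0.00104 without replicate 1) and was lost on leaving out any of the other 8, with limma adjusted p between 0.0537 without ap > Yki replicate 3 and 0.213 without ap > GFP replicate 1.

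Within the Yki background, ap > Yki+NelfAi against ap > Yki gave Nelf-A at 0.512-fold (95% interval 0.308 to 0.850), a log2 change of -0.97 (SE 0.326) that missed the threshold at a limma adjusted p of 0.0694. No subunit was called there by limma or edgeR, against 17.4% of all tested genes, and 1 of the 4, Nelf-A, had an unadjusted p under 0.05. DESeq2 on the recovered reads called Nelf-A, at a log2 change of -1.02, in a comparison where it called 1745 of 7852 genes. The 3 libraries with the construct lay below the 3 without it, as did 21.6% of tested genes.

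Without Yki, ap > NelfAi against ap > GFP gave Nelf-A a log2 change of -0.95 (SE 0.399, 95% interval -1.85 to -0.058, limma adjusted p = 0.968), and 0 of the 4 subunits were called by limma, edgeR or DESeq2. Nelf-A was the 1 subunit with an unadjusted limma p under 0.05, while edgeR and DESeq2 each had 0 subunits under it. That comparison called 0.0764% of tested genes. Its Nelf-A value depended on which replicate was kept, with a log2 change of -0.21 without replicate 1 and -1.70 (limma adjusted p = 0.0108) without replicate 2. Each of these leaves 1 ap > NelfAi library, which limma assumes to vary like the other genotypes. Both ap > NelfAi libraries were below both controls, as were 12.8% of tested genes.

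Yki without the construct left Nelf-A at a log2 change of -0.21 from ap > GFP (95% interval -1.03 to 0.60, limma adjusted p = 0.829). Replicate 3 of ap > Yki lay between the controls and replicates 1 and 2 lay below both.

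Averaged over both Yki backgrounds, the RNAi construct went with a log2 change of -0.96 in Nelf-A (SE 0.257, 95% interval -1.54 to -0.38, limma adjusted p = 0.0506), just short of the threshold that 8.04% of tested genes passed. Again no subunit was called by limma or edgeR, and 1 had an unadjusted p under 0.05. DESeq2 called Nelf-A at -0.89, where it called 893 of 7852 genes. This average was called without ap > NelfAi replicate 1 at -0.59 and without replicate 2 at -1.33, again with a lone ap > NelfAi library. An exact two-sided permutation test, which exchanged libraries only within each Yki background, gave p = 0.0167, the smallest value its 120 arrangements allow. That p is not adjusted over genes, and any gene separated in the same direction in both backgrounds reaches it. Separation as lower held for 12.8% of tested genes without Yki and 21.6% with Yki. The share with both was not counted. The RNAi effect on Nelf-A was not shown to differ between the backgrounds. The difference of the log2 changes was -0.012, but its 95% interval ran from -1.17 to 1.15, so these libraries do not exclude a difference within that range. In that test 1.26% of all genes and 0 of the 4 subunits were called, with 0 subunits at an unadjusted p under 0.05 and 0 by edgeR or DESeq2.

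The libraries also differed in how their values ran with transcript length, most of all the ap > NelfAi pair, and Nelf-A is a long transcript. In ap > NelfAi replicate 1 the deviation of a gene from its mean fell with length (Spearman's rho of -0.662 over 7735 genes, a description, since genes do not replicate each other), whereas in replicate 2 it rose (rho = 0.488). A smoothed curve of that trend, read at the length of Nelf-A, stood at -0.66 on the log2 scale in ap > NelfAi replicate 1, at 0.33 in replicate 2 and at 0.31 in ap > Yki replicate 3. In the other 7 libraries it lay between -0.14 and 0.23. At the lengths of NELF-B and TH1 the trend was within 0.07 of 0 in every library. At the length of Nelf-E it was 0.33 and -0.22 in ap > NelfAi replicates 1 and 2 and -0.18 in ap > Yki replicate 3. It lay between -0.090 and 0.088 there in the other libraries.

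With this trend removed, the Nelf-A values became 37.3 and 34.8 in ap > GFP, and 18.3 and 26.1 in ap > NelfAi. Libraries of ap > Yki gave 31.1, 33.2 and 31.7, while the tumorous discs gave 14.5, 16.5 and 16.5. All 5 libraries with the RNAi construct, at 14.5 to 26.1, then lay below all 5 without it, at 31.1 to 37.3, as did 3.61% of genes on that scale. On the deposited scale the ranges overlapped, 11.4 to 32.9 with the construct and 28.1 to 40.4 without. The ap > NelfAi replicates still differed by more than those of any other genotype, with a coefficient of variation of 24.8% against 3.32% in ap > Yki, 4.93% in ap > GFP and 7.42% in ap > Yki+NelfAi.

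The log2 change of Nelf-A on the length-corrected scale was -1.16 in ap > Yki+NelfAi against ap > GFP (SE 0.163, limma adjusted p = 0.000400), -0.99 against ap > Yki (SE 0.145, limma adjusted p = 0.000753) and -0.85 averaged over both backgrounds (SE 0.115, limma adjusted p = 0.00108). All of these were called, and the share of genes called rose as well, to 30.7%, 26.2% and 12.1% in the same order. ap > NelfAi against ap > GFP was at -0.71 (95% interval -1.10 to -0.31, limma adjusted p = 0.311) and was not called, in a comparison that called 0.0776% of genes. How much of the gap between the ap > NelfAi replicates the length trend accounts for was not tested beyond these values.

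**Figure D2:**
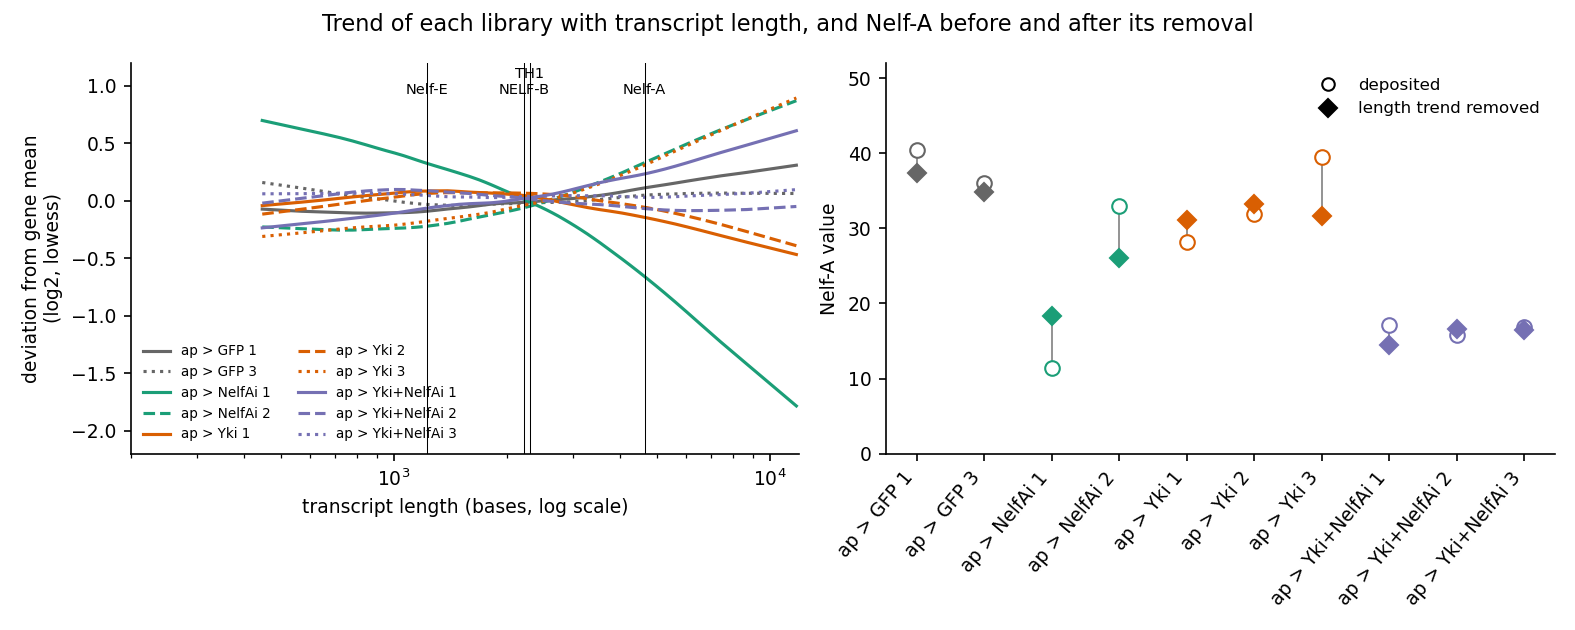
Left, smoothed deviation of each library from the gene means (log2) against transcript length in bases on a log axis, 1 line per library, with vertical lines at the lengths of the 4 subunits. Right, the Nelf-A value of each library as deposited (open circles) and with the length trend removed (filled diamonds), where the ap > NelfAi replicates move from 11.4 and 32.9 to 18.3 and 26.1 and ap > Yki+NelfAi replicate 1 from 17.1 to 14.5.

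The transcript of ap, the gene of the driver and 1 of the 7 disc epithelium markers, was not lower in the tumorous discs than in ap > GFP. Whether Gal4 itself followed ap was not tested. The value of ap, whose enhancer drives Gal4, was 127 and 132 in ap > GFP, and 79.4 and 117 in ap > NelfAi. The ap > Yki libraries had 110, 172 and 193, those of ap > Yki+NelfAi 278, 158 and 178. All tumorous libraries lay above all ap > GFP and ap > NelfAi libraries, as for 33.3% and 21.7% of tested genes. Against ap > GFP, ap did not pass the test in the tumorous discs (log2 change 0.61, limma adjusted p = 0.199). With the length trend removed it was called there (log2 change 0.61, limma adjusted p = 0.0412), as were 13.8% of genes as higher. In ap > NelfAi its log2 change from ap > GFP was -0.42 (limma adjusted p = 0.968), with both libraries below both controls, as for 12.8% of tested genes. In ap > Yki+NelfAi ap was called against ap > NelfAi (log2 change 1.04, limma adjusted p = 0.0498), where 657 of 7858 genes were called as higher. That call was lost, at 0.76, without ap > NelfAi replicate 1. It was also lost without either ap > GFP library, ap > Yki replicate 2 or any ap > Yki+NelfAi library. With the trend removed the change of ap against ap > NelfAi was 0.84 (limma adjusted p = 0.0117), and 12.2% of genes were called as higher.

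Nelf-A in ap > Yki+NelfAi against ap > NelfAi had a log2 change of -0.23 (SE 0.364, limma adjusted p = 0.718) that turned to 0.52 without ap > NelfAi replicate 2 and to -0.97 without replicate 1, where it was called (limma adjusted p = 0.0158), in fits that take the spread of the lone ap > NelfAi library from the other genotypes. No subunit was called in that comparison by limma, edgeR or DESeq2, none had an unadjusted p under 0.05, and 17.5% of tested genes were called. With the length trend removed 3 of the 4 had an unadjusted p under 0.05, Nelf-A at a log2 change of -0.45 (limma adjusted p = 0.0563), NELF-B at -0.43 (0.114) and Nelf-E at 0.48 (0.0431), and again none was called.

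NELF-B, which together with TH1 belongs to the core of the complex, showed no change that passed the test. Its value was 18.0 and 22.0 in ap > GFP, and 25.6 and 19.2 in ap > NelfAi. In ap > Yki it stood at 23.4, 24.2 and 16.02, and with both transgenes at 18.3, 15.6 and 17.1. On the deposited scale the genotypes overlapped in every pair except ap > Yki+NelfAi and ap > NelfAi, where the tumorous libraries were lower, as were 20.6% of tested genes. The log2 change was -0.22 in ap > Yki+NelfAi against ap > GFP (95% interval -0.74 to 0.30, limma adjusted p = 0.545), which leaves room for a fall to 0.597-fold of the control. It was -0.38 against ap > NelfAi (95% interval -0.90 to 0.15, limma adjusted p = 0.309). With the length trend removed the tumorous libraries, at 15.4 to 18.0, also lay below both ap > GFP libraries, at 18.1 and 22.3. The share of genes separated that way was not counted on this scale. On the deposited scale, where NELF-B overlapped, it was 31% of tested genes. The length-corrected change from ap > GFP was -0.27 (limma adjusted p = 0.299) and was not called.

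TH1, the fly counterpart of human NELF-C/D, was the steadiest subunit across these genotypes. Its value was 32.8 and 32.8 in ap > GFP, and 35.9 and 32.5 in ap > NelfAi. Libraries of ap > Yki gave 39.1, 40.4 and 31.6, while the tumorous discs gave 33.7, 32.9 and 33.7. The controls differed by less than their counting error of 4.06% to 4.42%, and the tumorous libraries, although all a little above the controls, exceeded their mean by a factor of only 1.02. The log2 change in ap > Yki+NelfAi against ap > GFP was 0.029 (95% interval -0.35 to 0.41, limma adjusted p = 0.931), and it turned to -0.013 with the length trend removed. In ap > Yki it was 0.17 (95% interval -0.22 to 0.55, limma adjusted p = 0.696), with replicate 3 below both controls.

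Nelf-E, the subunit with the RNA recognition motif, had higher values in the Yki-overexpressing discs that did not pass the test. Its value was 11.8 and 9.93 in ap > GFP, and 13.2 and 8.02 in ap > NelfAi. The ap > Yki libraries had 16.01, 17.5 and 12.4, those of ap > Yki+NelfAi 12.2, 15.8 and 14.9. The ap > Yki and the ap > Yki+NelfAi libraries each lay above both ap > GFP libraries, while ap > NelfAi replicate 1 reached into both ranges. The share of genes with all 6 Yki libraries above both controls was not counted. With the length trend removed the 6 Yki libraries, at 12.8 to 16.7, lay above all 4 without Yki, at 9.43 to 12.6, as for 8.24% of genes on that scale. The log2 change was 0.46 in ap > Yki against ap > GFP (95% interval -0.10 to 1.03, limma adjusted p = 0.385) and 0.38 in ap > Yki+NelfAi against ap > GFP (95% interval -0.19 to 0.95, limma adjusted p = 0.324).

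In the first of these comparisons 0 of the 4 subunits were called by limma, edgeR or DESeq2, none had an unadjusted p under 0.05, and 4.05% of tested genes were called. Groups that did not overlap with the higher values in Yki were also found for 21.8% of all tested genes there, and for 33.3% in ap > Yki+NelfAi against ap > GFP. On the length-corrected scale the change of Nelf-E in ap > Yki against ap > GFP was 0.41 (95% interval 0.061 to 0.76, limma adjusted p = 0.122), the 1 subunit with an unadjusted p under 0.05 there. It had an adjusted limma p of 0.0431 in ap > Yki+NelfAi against ap > NelfAi, but its log2 change of 0.48 was below the minimum of 1.5-fold. Nelf-E had 131 to 368 reads a library and shares exonic bases with CG43078.

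**Figure D3:**
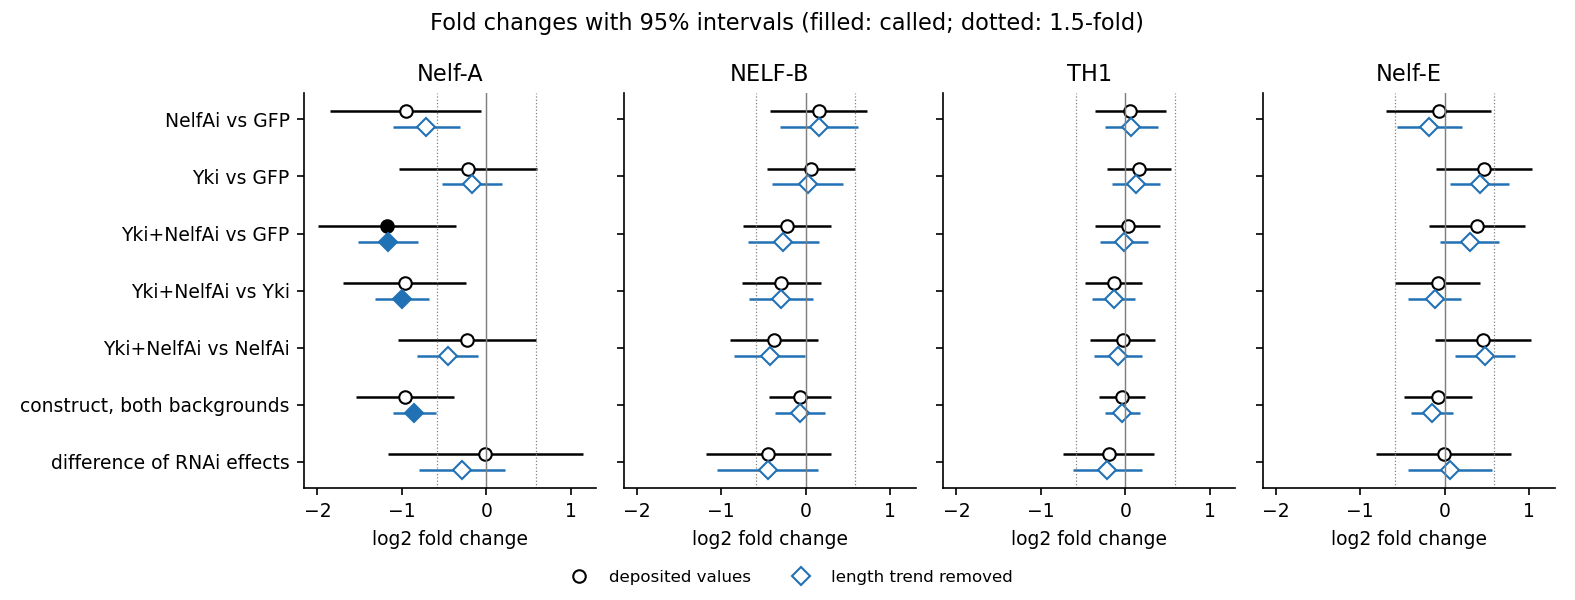
Log2 fold change of each subunit in the 7 comparisons with its 95% interval, from the deposited values (circles) and with the length trend removed (diamonds), where filled symbols passed the test and dotted lines mark 1.5-fold. Filled symbols appear for Nelf-A only, at -1.18 in ap > Yki+NelfAi against ap > GFP on the deposited scale, and no interval of TH1 on that scale reaches beyond -0.73 or 0.55.

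Set against its partners in the same library, which cancels the library factor, Nelf-A had its lowest mean ratio in the tumorous discs. Per kilobase of transcript it was below the mean of the other 3 subunits in all 10 libraries, at a ratio of 0.815 and 0.722 in ap > GFP, 0.195 and 0.726 in ap > NelfAi, 0.447 to 0.820 in ap > Yki and 0.297 to 0.336 in ap > Yki+NelfAi. The ratio of the deposited values, which is higher because the Nelf-A transcript is longer, was 1.94 and 1.67 in ap > GFP, and 0.458 and 1.66 in ap > NelfAi. In ap > Yki it stood at 1.07, 1.17 and 1.97, and with both transgenes at 0.800, 0.735 and 0.769. On both scales the tumorous libraries lay below all those without the construct, and ap > NelfAi split to both sides. Averaged over both backgrounds, the log2 ratio was lower by 0.93 with the construct (a difference of -0.93, pooled SD 0.605, and -0.93 per kilobase) and by 0.81 with the length trend removed (-0.81, pooled SD 0.236), given as a description with no test.

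Per kilobase, Nelf-A made up 20.4% ± 1.40 (SD, n = 2) of the summed NELF level in ap > GFP, 12.8% ± 9.47 (n = 2) in ap > NelfAi, 16.1% ± 4.66 (n = 3) in ap > Yki and 9.53% ± 0.535 (n = 3) in ap > Yki+NelfAi. The share of Nelf-E was 22.0% ± 2.45 (n = 2) in ap > GFP and 31.1% ± 3.55 (n = 3) in ap > Yki+NelfAi, and that of TH1 35.4% ± 0.391 and 38.9% ± 1.12. Shares of one sum move against each other, so these are not separate observations. The sum over all 4 subunits per kilobase stayed between 36.4 and 49.6 in the 10 libraries.

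**Figure D4:**
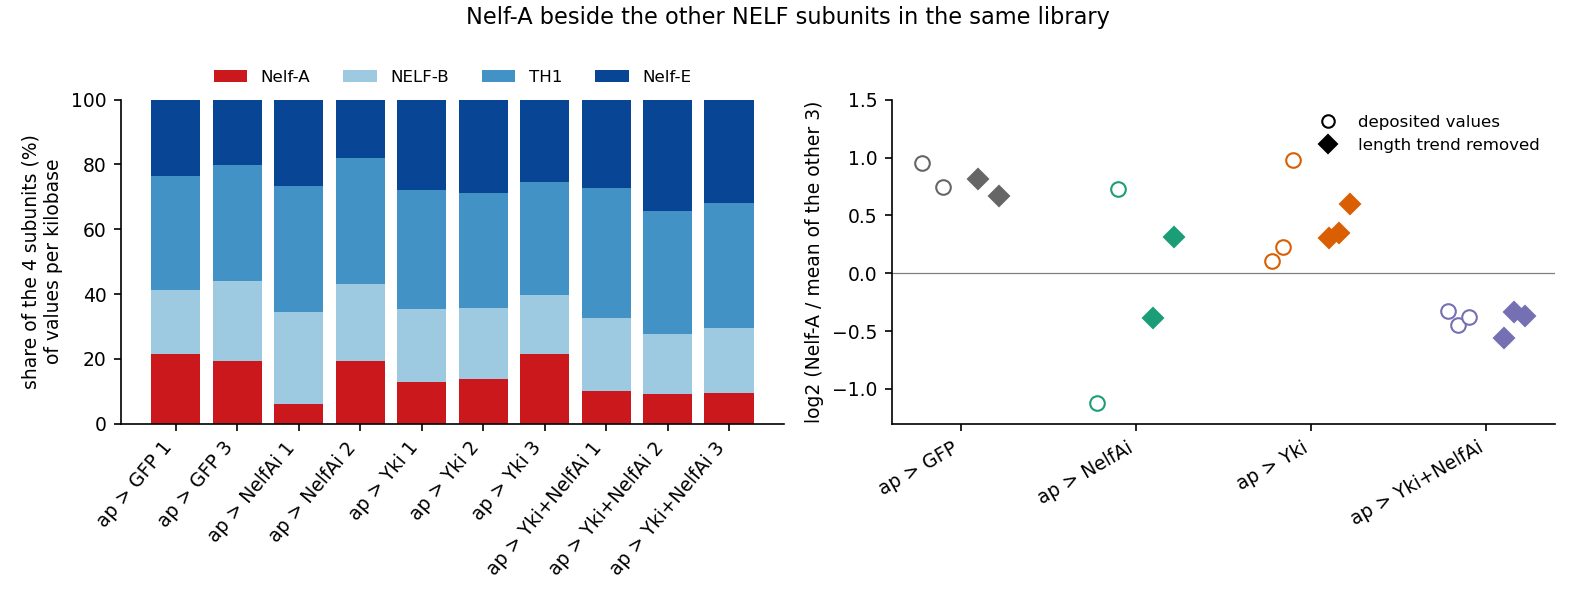
Left, share of each subunit (%) in the summed NELF level per kilobase, 1 bar per library. Right, log2 ratio of the Nelf-A value to the mean value of the other 3 subunits in each library, not divided by transcript length, as deposited (open circles) and with the length trend removed (filled diamonds), where the 3 ap > Yki+NelfAi libraries lie between -0.44 and -0.32 as deposited and the ap > NelfAi replicates at -1.13 and 0.73.

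Across the 10 libraries the subunits did not vary as 1 block. Pearson's r of the log2 values was 0.748 between NELF-B and TH1 and 0.641 between TH1 and Nelf-E, but -0.067, -0.114 and -0.346 between Nelf-A and NELF-B, TH1 and Nelf-E. It was 0.111 between NELF-B and Nelf-E. With the length trend removed, NELF-B and TH1 had 0.782 and TH1 and Nelf-E 0.282, NELF-B and Nelf-E turned to -0.317, and Nelf-A had 0.328 with NELF-B, 0.264 with TH1 and -0.011 with Nelf-E. The points share the 4 genotypes and the library factors, and are a description only.

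The genes whose values ran most like those of Nelf-A over the 10 libraries were tio, a zinc finger transcription factor of the teashirt family (r = 0.970), CG32547 (r = 0.968) and Wnt4, a Wnt ligand (r = 0.960), among 68 genes with r over 0.9. With the length trend removed they were hng3 (r = 0.981), tio (r = 0.975) and CG31522 (r = 0.971), among 107. For tio the group means were 15.7 in ap > GFP, 7.70 in ap > NelfAi, 13.4 in ap > Yki and 3.18 in ap > Yki+NelfAi. The nearest genes on the deposited scale were Ahcy13 (r = 0.960) for NELF-B, CR40962 (r = 0.965) for TH1 and CG3589 (r = 0.956) for Nelf-E. Fewer genes reached 0.9 for these subunits, 14, 6 and 15.

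The factors that work with or against NELF showed few called changes, and none was called as lower. All 47 genes of 9 lists of pausing and elongation factors were measured and tested. In ap > Yki+NelfAi against ap > GFP, 2 of the 47 rose and 0 fell by limma, edgeR and DESeq2. The 2 are 4.26% of the 47, where limma called 10% of all tested genes as higher and 12.1% as lower. The median log2 change of the 47 was 0.092, beside 0.030 over all genes. In ap > Yki+NelfAi against ap > Yki 1 rose by limma, where 7.2% of all genes did, and 0 fell, where 799 of 7858 did. None was called by limma in the other 5 comparisons, which called between 0.0764% and 17.5% of all tested genes. In these 5, between 1 and 6 of the 47 had an unadjusted p under 0.05. edgeR called none of the 47 outside ap > Yki+NelfAi against ap > GFP. DESeq2 called IntS11 in ap > Yki against ap > GFP, where it called 366 of 7852 genes as higher.

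Ssrp, a subunit of the histone chaperone FACT that helps the polymerase through nucleosomes, was 73.2 and 74.6 in ap > GFP, and 96.9 and 89.5 in ap > NelfAi. Libraries of ap > Yki gave 86.6, 87.9 and 83.9, while the tumorous discs gave 137, 103 and 126. The tumorous libraries were above all others, as for 11.4% of tested genes, with a log2 change of 0.71 over ap > GFP (limma adjusted p = 0.0166). dre4, the other FACT subunit, had a log2 change of 0.43 (limma adjusted p = 0.0893).

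IntS11, the RNA endonuclease of the Integrator complex, which cleaves the transcripts of paused polymerases, was 32.5 and 31.1 in ap > GFP, and 53.8 and 39.5 in ap > NelfAi. The ap > Yki libraries had 52.1, 45.7 and 48.4, those of ap > Yki+NelfAi 54.6, 49.2 and 49.6. Both controls were below all 8 other libraries, as for 2.85% of tested genes, and the log2 change in the tumorous discs was 0.67 (limma adjusted p = 0.0258). Of the 14 Integrator genes it was the only 1 called against ap > GFP. IntS3, called against ap > Yki (log2 change 1.00, limma adjusted p = 0.0478), was 13.5, 15.1 and 31.4 in the ap > Yki libraries and 40.5, 40.6 and 32.7 in the tumorous libraries, with replicate 3 of ap > Yki close to the tumorous libraries. Leaving out single libraries kept the call of Ssrp in 6 of 10 cases, of IntS11 in 5 and of IntS3 in 3. The calls of Ssrp and IntS11 were lost without either ap > GFP library or without ap > Yki+NelfAi replicate 1 or 3, and that of IntS11 also without replicate 2. That of IntS3 was kept only without an ap > NelfAi library or without ap > Yki replicate 3.

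The other partners of NELF had no call on the deposited scale. The log2 changes in ap > Yki+NelfAi against ap > GFP were 0.13 for Spt5 and -0.0042 for spt4, the DSIF subunits, and 0.30 for Cdk9 and 0.34 for CycT, the kinase and cyclin of P-TEFb. For the 7SK snRNP they were -0.48 for Hexim, which inhibits P-TEFb, -0.57 for bin3, which caps 7SK RNA, 0.13 for Larp7 and 0.57 for larp, a La-related protein kept in the same list. Hexim was at 17.4 and 18.1 in ap > GFP and at 11.9, 12.1 and 13.8 in ap > Yki+NelfAi, groups that did not overlap (31% of tested genes were also separated that way), with a limma adjusted p of 0.151.

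The extremes of the remaining lists were 0.79 for Su(Tpl) and -0.14 for lilli in the super elongation complex, 0.023 for Rtf1 and -0.085 for atms in the Paf1 complex, -0.023 for Cbp20 and -0.046 for Cbp80 in the cap binding complex, and 0.30 for E(bx) and -0.55 for pzg among promoter factors of paused genes. Some of them differed between the ap > NelfAi replicates by more than Nelf-A did, such as CycT with 11.7 and 110 and Su(Tpl) with 4.36 and 39.7. With the length trend removed, CycT (1.22) and E(bx) (1.26) were called as higher against ap > Yki beside IntS3 (0.97), and Su(Tpl) (1.53), larp (1.39) and Eaf (0.63) against ap > NelfAi, in comparisons that then called 11.7% and 12.2% of genes as higher.

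**Figure D5:**
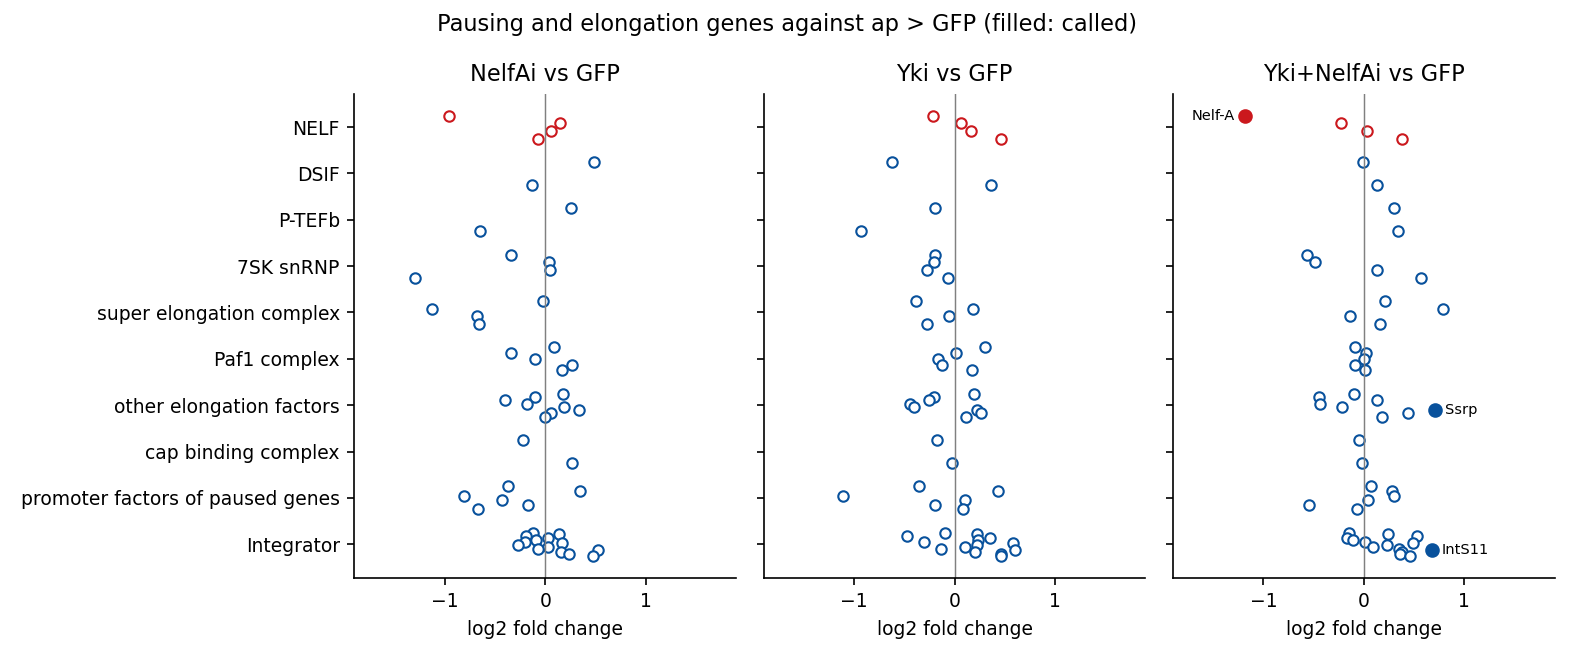
Log2 fold change against ap > GFP of the 4 NELF subunits and 47 other pausing and elongation genes, 1 row per complex or list and 1 point per gene, with filled points for genes that passed the test. Filled points appear in ap > Yki+NelfAi only, with Nelf-A at -1.18, Ssrp at 0.71 and IntS11 at 0.67.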

How the data were processed

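RNA-seq libraries of 4 genotypes were assigned to groups by their labels. Per the submitters' processing notes, reads were aligned to dm6 with HISAT. The deposited table holds a signal, the reads of a gene divided by a factor of its library, and how low genes were removed is not given in the sources used here. Whole reads (within 0.001) were recovered for 100% of values. The authors' comparison tables (log fold change, mean log level, p, FDR) were not used. The 5 entries that name no gene took 28.4% to 36.5% of reads and were left out.

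Genes that reached a value of 1 in 2 or more libraries entered limma 3.58.1 (trended variance, R 4.3.3) on log2(value + 0.5), with genotype as the factor over all 10 libraries and Benjamini-Hochberg adjustment. Fold changes are on that scale, which understates changes of low genes. edgeR 4.0.16 on the recovered reads called 1666 genes in ap > Yki+NelfAi against ap > GFP, where limma called 1736. DESeq2 1.42.0, other pseudocounts, no filter, removal of each library's lowess trend with transcript length (span 0.3), a replicate block and leaving out libraries were the alternatives. Scripts were tested on simulated data. Names and lengths came from the Ensembl annotation of dm6 (7864 of 7987 genes matched).

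Members and gene lists were chosen with earlier results of these data known. Named are the subunits, ap, every list gene called in any comparison and otherwise each list's extremes in ap > Yki+NelfAi against ap > GFP, the DSIF, P-TEFb and 7SK genes, and the 3 genes nearest to each subunit. dre4 and list genes called only without the length trend were named after their values were seen. How the pools of larvae behind the replicates were kept apart is not given in the sources used here, so p-values measure only the spread between libraries. Counting errors cover counting only.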

Additional observations from a re-analysis of the deposited data

How the results depend on the processing

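Of the 23 alternatives for ap > Yki+NelfAi against ap > GFP, 14 kept the Nelf-A call, and all kept its direction, with adjusted p (limma, edgeR or DESeq2) from 9.11e-05 to 0.213. That range was 0.0108 to 1 for Nelf-A in ap > NelfAi against ap > GFP and 0.0107 to 0.822 in ap > Yki+NelfAi against ap > NelfAi. The other 3 subunits were called in 0 of 465 fits under the alternatives. Leaving out single libraries moved the log2 change of Nelf-A between -1.26 and -1.10 in that comparison, -1.08 and -0.84 against ap > Yki, -0.97 and 0.52 against ap > NelfAi, -1.70 and -0.21 in ap > NelfAi against ap > GFP, -1.33 and -0.59 for the construct over both backgrounds, and -0.76 and 0.73 for the difference between backgrounds.

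Nelf-A against ap > Yki was called with DESeq2 (-1.02), with only the genotypes compared (-0.97), without both ap > NelfAi libraries (-0.97), and with the length trend removed (-0.99), also without ap > NelfAi replicate 1 (-0.996) or 2 (-0.99). The construct over both backgrounds was called with a pseudocount of 1 (-0.94), DESeq2 (-0.89) and the trend removed (-0.85), also without ap > NelfAi replicate 1 (-0.73) or 2 (-0.98). With the trend removed, ap > NelfAi against ap > GFP was called without replicate 2 (-0.96), and ap > Yki+NelfAi against ap > NelfAi without replicate 1 (-0.71). A fit without an ap > NelfAi replicate assumes that the lone library left varies like the other groups. The causes were not tested.

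Libraries with the same replicate number did not vary alike as a rule. Of 12 pairs with the same number, 4 had a correlation of deviations over 0.1 (range -0.426 to 0.589), and 2 of 10 libraries correlated best with their own number. In ap > GFP and ap > NelfAi, with 2 libraries each, the deviations of the 2 mirror each other. The check therefore cannot decide whether libraries with the same number shared a batch. With the replicate block Nelf-A stood at -1.28 (limma adjusted p = 0.0673) in ap > Yki+NelfAi against ap > GFP, and that comparison called 1091 genes in place of 1736, ap > Yki against ap > GFP 117 in place of 318, ap > NelfAi against ap > GFP 1 in place of 6, the construct over both backgrounds 260 in place of 632, and the difference between backgrounds 0 in place of 99. The block also turned the sign of changes near 0, in TH1 against ap > NelfAi (0.0061) and in the difference between backgrounds for Nelf-A (0.075) and Nelf-E (0.054).

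No change of sign outside the replicate block and single libraries exceeded 0.14. With the length trend removed they were TH1 in ap > Yki+NelfAi against ap > GFP (-0.013, and -0.015 or -0.011 without ap > NelfAi replicate 1 or 2), NELF-B in ap > NelfAi against ap > GFP without replicate 1 (-0.015), NELF-B for the construct without replicate 2 (0.017), and Nelf-E for the difference between backgrounds (0.066, and 0.14 without replicate 1). With edgeR, Nelf-E in ap > NelfAi against ap > GFP turned to 0.0061. Leaving out single libraries moved NELF-B between -0.17 and 0.032 for the construct, -0.052 and 0.36 in ap > NelfAi and -0.075 and 0.25 in ap > Yki against ap > GFP. It moved TH1 between -0.011 and 0.13 in ap > NelfAi against ap > GFP and -0.10 and 0.040 in ap > Yki+NelfAi against ap > NelfAi. It moved Nelf-E between -0.25 and 0.092 for the construct, -0.41 and 0.27 in ap > NelfAi against ap > GFP, -0.22 and 0.020 for the tumorous discs set against ap > Yki, and -0.36 and 0.33 for the difference between backgrounds. The 2 control libraries limit precision, with a 95% interval of 0.250 to 0.778 around the 0.442-fold level of Nelf-A.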
